A study of Mus musculus with 16 samples.

Results

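H2AK119ub1 and H3K27me3 were compared in wild type neural precursor cells (NPCs) of the mouse, using the peaks called for each mark by chromatin immunoprecipitation and sequencing (ChIP-seq). There were 5754 H2AK119ub1 peaks and 11371 H3K27me3 peaks, 17125 of the 86279 peaks in the 10 peak lists of the series. A peak counted as having both marks when a peak of the other list overlapped it by at least 1 bp. This gave 4679 H2AK119ub1 peaks with H3K27me3 and 1075 alone, and 2899 H3K27me3 peaks with H2AK119ub1 and 8472 alone. The classes rest on the extent of the peaks, so width bears on them, while enrichment, location relative to genes and sequence were not used to form them.

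The NPCs were wild type 46C cells, an embryonic stem cell (ESC) line with a GFP reporter at Sox1, after 6 days of neural differentiation in suspension without feeder cells or added LIF. For reference, the same marks were taken from wild type ESCs kept in serum with LIF and 2i on feeder cells, and from ESCs and day 6 cells labelled shPCGF5 and named PCGF5-depleted, made by a short hairpin virus with picking of clones in the study's methods. Whether these cells were 1 clone is not given in the sources used here, and the ESC cultures could also hold feeder fibroblasts. Flag-PCGF5 peaks came from reporter cells whose Pcgf5 gene was tagged with Flag, before and after the same differentiation. Each group was 1 library with no replicate, so there was no replicate error and no test between marks or cells. Intervals in brackets are 95% Wilson intervals, which cover counting error over peaks or genes only. They treat peaks as independent, although many lie in the same region, and so can be too narrow. Read numbers were not part of the files, which leaves depth unknown, and a locus outside a list may still carry the mark. The peaks do not measure expression, so the identity of the cells could not be checked against marker genes. A whole culture was measured, in which a gene marked in some cells and a gene marked weakly in all cells cannot be told apart.

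H2AK119ub1, a single ubiquitin on histone H2A, is laid down by Polycomb repressive complex 1 (PRC1), whose RING1B subunit is the ligase. H3K27me3, trimethylation of a lysine in the tail of histone H3, is laid down by Polycomb repressive complex 2 (PRC2) through EZH1 or EZH2. Variant PRC1, including the form with PCGF5, can set H2AK119ub1 that PRC2 recognises, and canonical PRC1 binds H3K27me3 through its CBX subunits, so the marks are known to meet at silent developmental genes, often in CpG-rich sequence.

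The sequence under the peaks is shown first, because it set the H2AK119ub1 peaks without H3K27me3 apart. For each class the middle 200 bases of a promoter peak of high enrichment are given, on the plus strand of mm9, with each CG dinucleotide in capitals. The choice of these peaks was not filtered for repeated sequence. The peak with both marks lay 2407 bp inside the start of Lhx5, a LIM homeobox gene of the forebrain, at chr5:120884202-120884401. The peak with H2AK119ub1 alone lay 2170 bp upstream of Hs3st4, a heparan sulfate sulfotransferase gene, at chr7:131124113-131124312. Hs3st4 was not among the 57 genes with only H2AK119ub1 at a promoter. An H3K27me3 peak that did not touch this one was thus centred within 2500 bp of one of its starts. The peak with H3K27me3 alone lay 535 bp inside the start of Doc2b, a calcium sensor of vesicle release, at chr11:75608916-75609115.
Lhx5, both marks: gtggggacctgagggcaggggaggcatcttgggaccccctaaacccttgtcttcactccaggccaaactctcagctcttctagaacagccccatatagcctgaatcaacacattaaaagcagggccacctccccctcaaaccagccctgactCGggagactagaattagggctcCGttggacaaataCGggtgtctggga
Hs3st4, H2AK119ub1 alone: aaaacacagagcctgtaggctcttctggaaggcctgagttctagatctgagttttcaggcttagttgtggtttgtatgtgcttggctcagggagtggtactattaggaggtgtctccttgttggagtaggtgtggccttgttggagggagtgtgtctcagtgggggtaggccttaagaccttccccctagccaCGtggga
Doc2b, H3K27me3 alone: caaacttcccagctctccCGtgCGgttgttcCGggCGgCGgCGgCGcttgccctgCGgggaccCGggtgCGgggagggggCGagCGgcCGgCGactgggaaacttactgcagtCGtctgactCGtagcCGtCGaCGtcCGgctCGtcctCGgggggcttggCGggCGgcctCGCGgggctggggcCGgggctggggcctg
The Doc2b window held 27 CG dinucleotides, at 75.5% GC and an observed to expected CpG ratio of 0.97. The Lhx5 window held 3 at 55.5% GC, and the Hs3st4 window held 1 at 52% GC.

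Across the classes, H2AK119ub1 alone stood apart from the other 3. Over the central 200 bases, the median CpG ratio was 0.39 (quartiles 0.17 and 0.67) for H3K27me3 alone and 0.36 (0.15 and 0.64) for H3K27me3 with H2AK119ub1. It was 0.32 (0.14 and 0.55) for H2AK119ub1 with H3K27me3 and 0.09 (0.00 and 0.23) for H2AK119ub1 alone. Windows with over 50% GC and a ratio over 0.6 made up 27.7% (26.7 to 28.7) of H3K27me3 peaks alone and 23% (21.5 to 24.6) with H2AK119ub1. They made up 16.6% (15.5 to 17.7) of H2AK119ub1 peaks with H3K27me3, but 1.3% (0.777 to 2.17) of H2AK119ub1 peaks alone. At promoters the share was still 3.45% (1.68 to 6.95) for H2AK119ub1 alone, against 22.3% (20.5 to 24.1) with H3K27me3. For promoter H3K27me3 peaks the shares were close, at 34.8% (33.5 to 36.2) alone and 33.1% (30.6 to 35.7) with H2AK119ub1. The lower share for H2AK119ub1 alone was there at promoters and away from them. Distance from the start within promoters and repeated sequence were not held equal in this comparison.

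Repeated sequence followed the same division. A peak was called repeated when at least 50% of the 25-base words in its central 200 bases occurred more than once in the genome. This held for 458 of 1075 H2AK119ub1 peaks alone, 42.6% (39.7 to 45.6), and for 511 of 4679 with H3K27me3, 10.9% (10.1 to 11.8). Among H3K27me3 peaks the shares were 12.7% (12 to 13.5) alone and 12.2% (11.1 to 13.5) with H2AK119ub1. Among the narrowest 25% of H2AK119ub1 peaks, 42.6% (38.5 to 46.8) of those alone and 13.5% (11.4 to 15.9) of those with H3K27me3 were repeated, so the difference was there at equal width. How aligned reads were assigned among copies was not given in the sources used here, and its part in these peaks was not tested. Without repeated peaks in either list, 86.4% (85.4 to 87.3) of H2AK119ub1 peaks overlapped H3K27me3.

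**Figure D1:**
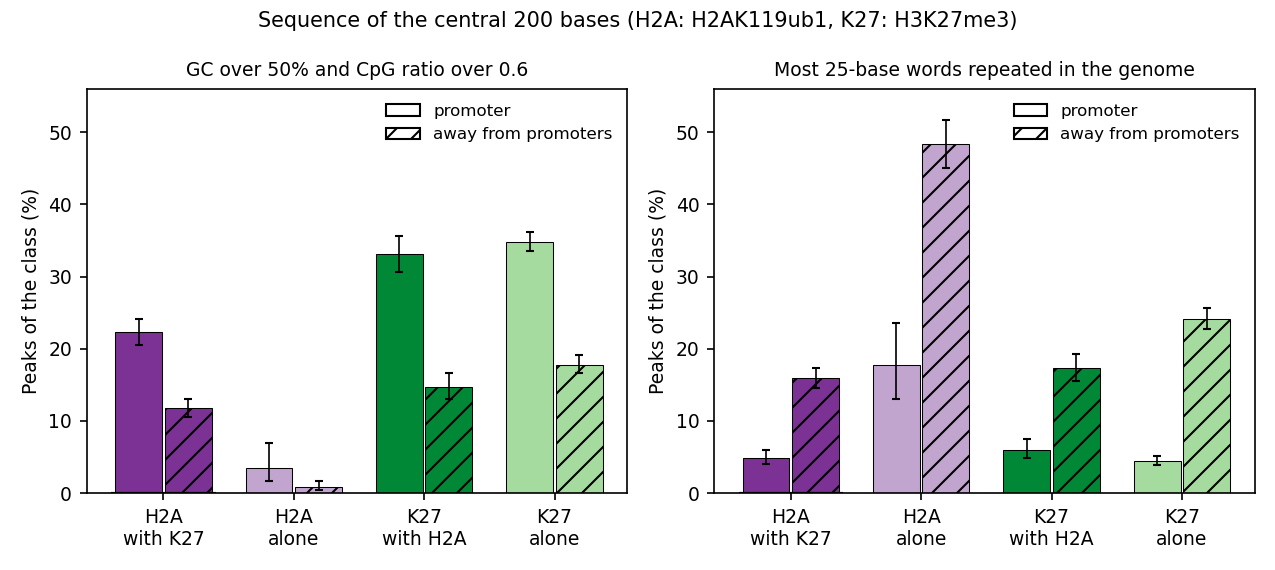
Share of peaks of each class, in percent, whose central 200 bases had over 50% GC and an observed to expected CpG ratio over 0.6 (left), or mostly 25-base words found more than once in the genome (right). Plain bars are promoter peaks, hatched bars the rest, and error bars are 95% Wilson intervals; H2AK119ub1 alone had the lowest CpG-rich share and the highest repeated share at both kinds of place.

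H2AK119ub1 was in large part contained in H3K27me3, whereas most H3K27me3 stood without H2AK119ub1. Of the H2AK119ub1 peaks, 81.3% (80.3 to 82.3) overlapped H3K27me3, and of the H3K27me3 peaks 25.5% (24.7 to 26.3) overlapped H2AK119ub1. The shared 1.99 Mb were 85.4% of the 2.33 Mb under H2AK119ub1 and 20.6% of the 9.67 Mb under H3K27me3. Of the shared H2AK119ub1 peaks, 76.5% (75.3 to 77.7) lay wholly inside H3K27me3. A shared H3K27me3 peak had a median of 44.4% of its length under H2AK119ub1, and 32.4% (30.7 to 34.1) held 2 or more H2AK119ub1 peaks. The lists differed in length, and cutting both to the 5754 top-scoring peaks brought the shares to 70% and 39.3%, still in the same order.

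Of the 1075 H2AK119ub1 peaks alone, 33.9% (31.1 to 36.7) had H3K27me3 within 1000 bp and 48.6% (45.6 to 51.5) within 5000 bp, with a median gap of 5937 bp. H3K27me3 alone lay farther off, with H2AK119ub1 within 1000 bp of 13.3% (12.5 to 14) and within 5000 bp of 28% (27.1 to 29). Its median gap was 121520 bp. The H2AK119ub1 list was the shorter and covered fewer bases, and the part of this in the gaps was not tested. Part of the peaks of H2AK119ub1 alone therefore flanked H3K27me3, and H3K27me3 alone was mostly remote from H2AK119ub1. Counting a mark within 1000 bp as shared raised the shares to 87.6% and 35.4%.

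Shared H2AK119ub1 peaks were wider than peaks alone, with medians of 300 bp (quartiles 202 and 513) and 179 bp (148 and 233). For H3K27me3 the medians were 1068 bp (469 and 2170) and 380 bp (263 and 699). Peaks over 1000 bp made up 52.1% (50.3 to 53.9) of shared H3K27me3 peaks and 15.2% (14.4 to 16) of those alone. The chance that a peak meets the other list grows with its own width, and this was not separated from a property of the loci. From the narrowest 25% to the widest, the share with the other mark rose from 62.1% to 98.3% for H2AK119ub1 and from 10.4% to 53.6% for H3K27me3.

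Column 7 of the lists is the fold enrichment of a peak over background as the peak caller wrote it, and was compared only within a list. H3K27me3 peaks with H2AK119ub1 had the higher enrichment, with a median of 6.04 (quartiles 4.77 and 7.65) against 4.43 (3.7 and 5.3) alone. The share with H2AK119ub1 rose from 10.1% in the lowest 25% of enrichment through 13.5% and 24.2% to 54.2% (52.4 to 56) in the highest. For H2AK119ub1 the medians of 4.45 (3.71 and 5.34) with H3K27me3 and 4.24 (3.67 and 4.81) alone were close, a log2 ratio of 0.07 with an interval from counting error of 0.02 to 0.13. Among the 50% of peaks with the higher scores that ratio was 0.01. The share with H3K27me3 was 79.4%, 76.4%, 80.1% and 89.4% from the lowest 25% of enrichment to the highest, so it rose only at the top. Split by p-value instead, the share rose throughout, at 72%, 76.4%, 84.6% and 92.3% from the weakest 25% to the strongest. A q-value above 0.05 was found for 7.81% (6.36 to 9.57) of H2AK119ub1 peaks alone and 3.63% (3.13 to 4.21) with H3K27me3. Across 4575 H2AK119ub1 peaks that met a single H3K27me3 peak, Spearman's rho of the enrichments was 0.14 and of the widths 0.31, a description over peaks that share these libraries and of which several can lie in the same H3K27me3 peak.

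**Figure D2:**
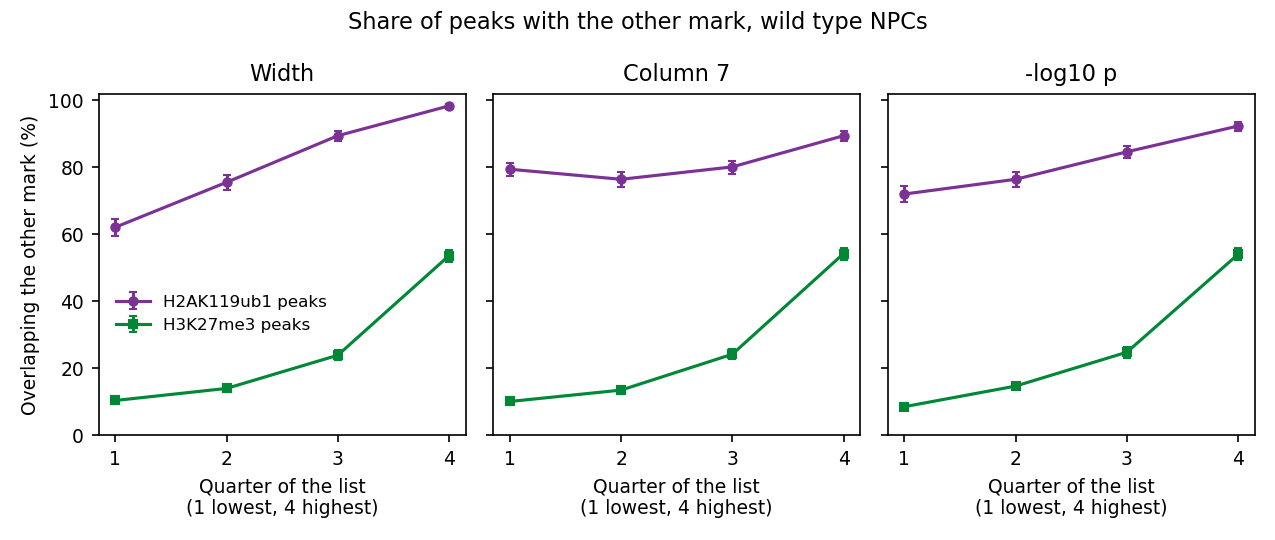
Share of peaks overlapping the other mark, in percent, for each list split into 4 equal groups by width, by column 7 and by -log10 p-value. Error bars are 95% Wilson intervals; the H3K27me3 curve climbs to over 50% in the highest group of all 3 measures, and the H2AK119ub1 curve is flattest for column 7.

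Summits and coverage were compared within shared loci. In the same 4575 pairs the summits, the points of highest signal, lay a median of 382 bp apart. The H2AK119ub1 summit fell inside the H3K27me3 peak in 96.1% (95.5 to 96.7), but the H3K27me3 summit fell inside the H2AK119ub1 peak in 38.4% (37 to 39.8). H2AK119ub1 peaks were the narrower, mostly lay inside H3K27me3 and could share an H3K27me3 summit, and this was not separated from the difference in place. Around the starts of the 1051 genes with both marks, H3K27me3 peaks covered 74.7% of genes at 500 bp downstream. H2AK119ub1 peaks covered 25.6% of these genes at 1250 bp downstream and 16% at 750 bp upstream, but 7.42% at the start itself, so coverage was lower at the start than on both sides. H3K27me3 covered 59.4% at the start. Among the 2429 genes with H3K27me3 only, H3K27me3 coverage was highest at 500 bp downstream too, at 49%, and the lack of H2AK119ub1 there follows from how the genes were chosen.

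**Figure D3:**
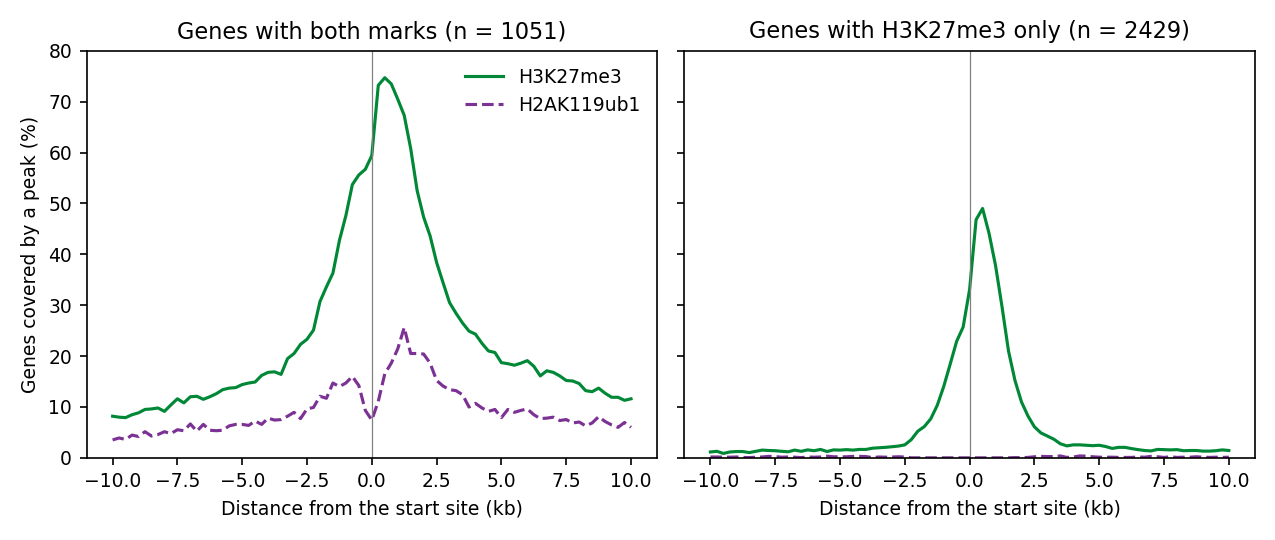
Percent of genes covered by a peak at each distance from the start site, in kb, downstream to the right, for genes with both marks (left) and with H3K27me3 only (right). The solid line is H3K27me3 and the dashed line H2AK119ub1; in genes with both marks H2AK119ub1 dips to 7.42% at the start and reaches 25.6% at 1250 bp downstream.

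By location, H2AK119ub1 peaks with H3K27me3 were at promoters more often than those alone. A promoter peak was one centred at most 2500 bp from where a protein-coding transcript starts. Of H2AK119ub1 peaks with H3K27me3, 45.6% (44.2 to 47) were at promoters, 4% in exons, 16.5% in introns and 33.9% intergenic. Of those alone, 18.9% (16.7 to 21.3) were at promoters, 1.67% in exons, 26.6% in introns and 52.8% intergenic. The promoter shares differed by 26.7 percentage points (23.9 to 29.4). Conversely, 91.3% (90.1 to 92.4) of promoter H2AK119ub1 peaks and 73.6% of intergenic ones overlapped H3K27me3. Without repeated peaks the promoter shares were 48.8% and 27.3%.

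For H3K27me3 the promoter share was lower with H2AK119ub1, at 45.2% (43.4 to 47) against 58.2% (57.1 to 59.2) alone, and the intergenic share was higher, at 36.2% against 26.2%. The difference of -12.9 percentage points (-15 to -10.8) held the same sign in each of the 4 width groups, with 54.7% against 74.5% in the widest. It depended on counting peaks singly. With peaks of a list within 1000 bp merged, the shares were 55.4% and 55.7%, a difference of -0.306 points (-3.2 to 2.57), and the cause of this change was not tested. The centres of H3K27me3 peaks alone also lay closer to start sites, with a median distance of 1558 bp against 3004 bp. Of these peaks, 22.4% (21.5 to 23.3) against 11.8% (10.7 to 13) were centred within 500 bp of a start. By the extent of the peak the order was the opposite. A start site was spanned by 19.7% (18.3 to 21.2) with H2AK119ub1 and 15.1% (14.3 to 15.9) alone. Shared peaks were the wider, and this was not separated from their place.

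**Figure D4:**
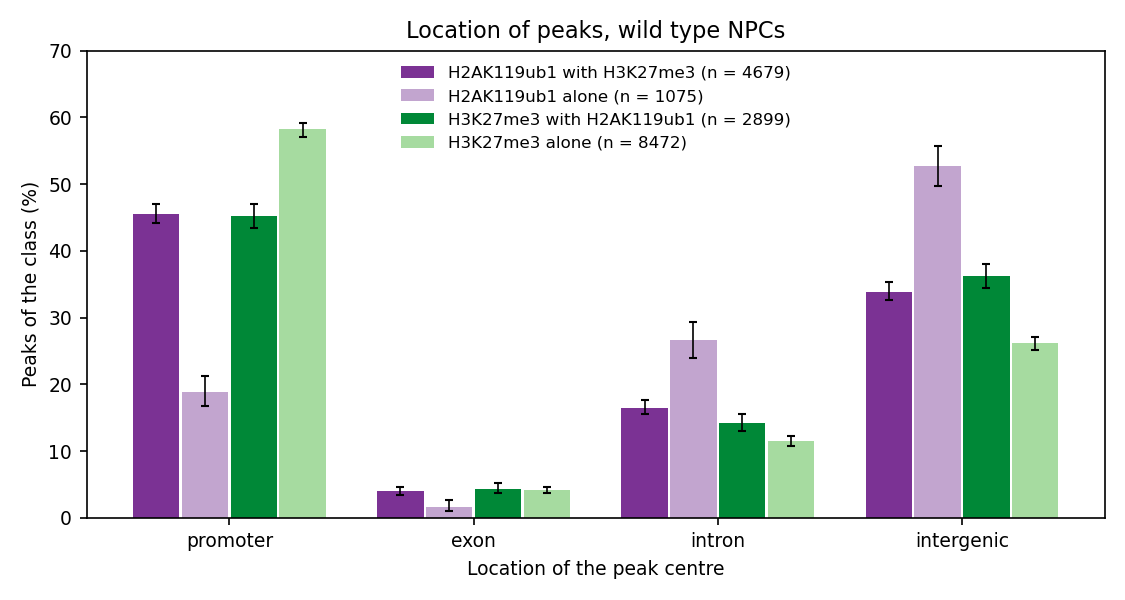
Percent of the peaks of each class with their centre at a promoter (within 2500 bp of a start site), in an exon, in an intron or between genes, with 95% Wilson intervals as error bars. H2AK119ub1 alone has the lowest promoter share, 18.9%, and the highest intergenic share, 52.8%.

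Of the 12 shared peaks named for the highest enrichment or width in each list, 6 lay in Hox clusters. Among H2AK119ub1 peaks with H3K27me3, the highest enrichments were 13.7 near Hoxc4 (chr15:102861562-102862581), 13.3 at the start of Zic4, a zinc finger gene of the neural tube (chr9:91263029-91264359), and 12 in an exon of Hoxc11. In the peak near Hoxc4, 60.2% of the words were repeated. The widest were 7411 bp near Hoxb3, 6009 bp in Hoxb9 and 5969 bp at Hoxa10. Hox genes encode the factors that set position along the body axis, and are silent in anterior neural tissue. Among H3K27me3 peaks with H2AK119ub1, the highest enrichments were 17.6 at Hoxb6 (chr11:96152996-96162653), 17.5 in an exon of Osr2, a factor of limb and kidney development, and 15.7 at Esx1, an X-linked homeobox gene. The widest of that class was 19914 bp, upstream of Rhou, with 100% of its central words repeated. It was followed by 15245 bp across the start of Foxf1a, overlapping 17 H2AK119ub1 peaks, and 11942 bp upstream of Polg.

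Among peaks of H2AK119ub1 alone, 3 of the 6 named for enrichment or width were repeated. The highest enrichment, 9.3, belonged to a peak of 186 bp between genes on chromosome X in which 82.4% of words were repeated, and the third, 7.8, lay in the same stretch, with 92% repeated. The second, 8.05, lay in an intron of Prox1, a homeobox gene of neuronal and lymphatic fate (chr1:191991846-191992027), 3518 bp from the nearest H3K27me3. The widest peaks were 1193 bp at Mn1, 1041 bp in Ppp1r14c with 87.5% of words repeated and 938 bp at 2700081O15Rik. Some peaks of this class crowded together. A stretch at chr14:4049190-4985272 held 17 of them and one at chrX:123299959-123312515 held 8, all 25 repeated. A stretch of the Hoxc cluster, chr15:102735051-102953218, held 12, of which 1 was repeated, and one of the Hoxa cluster, chr6:52077614-52247879, held 8 with 0 repeated. Another stretch, chr4:88472180-88953772, held 10, of which 3 were repeated.

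H3K27me3 alone was strongest at 1810019J16Rik with an enrichment of 14, at Doc2b with 13.8 and at Pgk1, the phosphoglycerate kinase of glycolysis, with 13.7 over 516 bp (chrX:103382050-103382565). It was widest at Mdga1, with 5814 bp, at Ecel1, with 5576 bp, and at Kiss1r, with 5336 bp. All 6 of these peaks were at promoters, none had over 1.14% repeated words, and the nearest H2AK119ub1 was between 21671 and 2274238 bp away.

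Joining peaks of both lists that lay within 1000 bp gave 6815 regions, of which 1556, or 22.8%, held both marks. These regions had a median length of 2902 bp and 59.4% of all covered bases, against 545 bp and 39.1% for the 4564 with H3K27me3 alone and 179 bp and 1.41% for the 695 with H2AK119ub1 alone. Of the 10 longest by covered bases, 4 were Hox clusters. The Hoxc region, chr15:102736918-102871871, was 135 kb long with 121 H2AK119ub1 peaks over 93.6 kb and 69 H3K27me3 peaks over 113 kb. The Hoxa region had 84 kb of H2AK119ub1 and 98.2 kb of H3K27me3, the Hoxb region 76.8 and 94.4 kb, and a stretch from Hoxd9 to Hoxd12 20 and 25.7 kb. In each of these 4, H2AK119ub1 covered most of what H3K27me3 covered. Hand2, a heart and limb factor, Tbx3, a T-box factor, and the pair Dlx5 and Dlx6, homeobox genes of forebrain and jaw, made up 3 more, with 22.7, 22.1 and 22.8 kb of H2AK119ub1. In these 7 regions between 0.566% and 1.29% of 25-base words occurred more than once within the region.

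The other 3 of the 10 were tandem repeats. In chr8:126061235-126148486, which held no start site of a protein-coding gene, 98.1% of words recurred within the region. In chr6:47601573-47637012, also without one, 99.5% recurred, and in chr9:2999983-3038315, with 12 predicted genes named Gm, 94.4% recurred. The first had 30 kb of H2AK119ub1 and 83 kb of H3K27me3. In wild type ESCs the same region held 75.6 and 80.3 kb and in PCGF5-depleted NPCs 51.5 and 79 kb, so it was widely marked in all of these lists, unlike the Tbx3 region, where neither mark had a peak in wild type ESCs. The region on chromosome 9 had no peak of either mark in wild type ESCs, but 28 and 21.8 kb in PCGF5-depleted NPCs. Whether read assignment among copies raised these regions was not tested.

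At the level of genes, 1051 of 22232 protein-coding genes had both marks at a promoter, a background of 4.73%. H2AK119ub1 only was found at 57 genes, 0.256%, H3K27me3 only at 2429, 10.9%, and neither at 18695. Of genes with H2AK119ub1, 94.9% (93.4 to 96) had H3K27me3 too, and of genes with H3K27me3, 30.2% (28.7 to 31.7) had H2AK119ub1. In 980 of the 1051 genes an H2AK119ub1 promoter peak was itself overlapped by H3K27me3. The gene numbers shift with the window. With centres within 1000 bp there were 579 genes with both marks, and among the 50% of peaks with the higher scores 593.

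Genes with both marks had more H3K27me3 in their promoter peaks than those with H3K27me3 only. Widths were summed per gene over whole peaks centred within 2500 bp of any start. The sums can thus reach past that window. The median gene had 2759 bp of H3K27me3 (quartiles 1798 and 3998) with a highest enrichment of 7.13, against 899 bp (454 and 1590) and 4.91. H2AK119ub1 at genes with both marks had a median of 404 bp (200 and 1040). Over 1000 bp around the most upstream start, the median CpG ratio was 0.70 for both marks, 0.65 for H3K27me3 only, 0.42 for H2AK119ub1 only and 0.49 for neither.

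The genes highest in both marks included homeobox genes, a growth factor adaptor and a receptor. Lhx5 led, with 4 H2AK119ub1 peaks over 3868 bp and a highest enrichment of 11.7, and 1 H3K27me3 peak of 10652 bp with an enrichment of 13.5. Grb10, an imprinted adaptor of growth factor receptors, followed with 11 H2AK119ub1 peaks over 6929 bp at up to 9.79 and 7 H3K27me3 peaks at up to 13. Next were Ankrd33b, at 9.43 and 11.9, Hoxb6, at 9.36 and 17.6, Gm10419, at 9.98 and 11.3, and Vax2, a homeobox gene of the ventral eye, at 8.89 and 14.3. Ebf2, a helix-loop-helix factor, had 10.1 and 11.1, 5730596B20Rik in the Hoxa cluster 8.76 and 12.4, Nrn1, a neurite growth factor, 8.66 and 10.9, and Flt1, a VEGF receptor, 10.6 and 10.8. All 10 had H3K27me3 and 9 had H2AK119ub1 at the promoter in PCGF5-depleted NPCs, where the shares over all 1051 genes with both marks were 93.4% and 51.8%.

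H2AK119ub1 without H3K27me3 at a promoter was in part a matter of where a peak was centred. The highest enrichments among the 57 genes were 9 at Lhx4, a LIM homeobox gene, 7.98 at Cyp26b1, which degrades retinoic acid, 7.67 at Hoxb4 and 7.02 at Gm14396 in the Hoxd cluster. At each of these 4, and at Nxph4, a neurexophilin gene, with 5.27, every H2AK119ub1 promoter peak was overlapped by an H3K27me3 peak centred beyond the window. This was so for 12 of the 57. Abca1, a cholesterol transporter, at 6.63 had its only peak in repeated sequence, 4688 bp from H3K27me3, and Slc22a23, Lca5l and D10Wsu52e, with enrichments from 5.06 to 5.31, each had 1 peak of at most 135 bp, at D10Wsu52e in repeated sequence. In 23 of the 57 every promoter peak was repeated, and 13 had H3K27me3 within 5000 bp of a promoter peak, the 12 included. Counting any base of a peak left 45 genes in the class.

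H3K27me3 reached an enrichment of 14 at genes without H2AK119ub1 and of 17.6 at genes with both marks. After 1810019J16Rik, Doc2b and Pgk1 came Grwd1, a WD-repeat protein of ribosome assembly, with 13.4 over 3710 bp, BC021891 with 12.8, Kcna7, a potassium channel, with 12.4, and Emilin3, a matrix protein, with 12.2. Bcl3, a regulator of NF-kB, had 11.5, Man1c1, a mannosidase, 11.3 and Gjd2, a gap junction protein of neurons, 11.3. Of these 10, 8 had H3K27me3 in PCGF5-depleted NPCs and 5 had H2AK119ub1 there, where the shares over all 2429 genes with H3K27me3 only were 68.6% and 11.4%. Pgk1 had neither mark in any other list, while Flag-PCGF5 did have a peak at its promoter in NPCs.

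In homeobox families most genes had both marks, set against 4.73% of all genes. Of 39 Hox genes, 38 had both marks and 1, Hoxb4, H2AK119ub1 only. All 6 Dlx genes had both, as did 11 of 12 LIM homeobox genes, 8 of 9 Pax genes, 12 of 14 Nkx genes and 5 of 6 Irx genes. Pax6, a master gene of eye and forebrain, had 20 H2AK119ub1 peaks over 10492 bp at up to 7.21 and 9 H3K27me3 peaks over 18187 bp at up to 10.7. Nkx2-1, of ventral forebrain and thyroid, had 8.06 and 9.19, and Six3, of the anterior forebrain, 6.94 and 7.67. Six3 was among 4 of the 6 genes of its family with both marks, and the other two had neither. Pax4 and Irx5 had H3K27me3 only.

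Other factors of lineage choice were also often marked. Of 18 Sox genes, 6 had both marks and 4 H3K27me3 only, with Sox17, of endoderm, at 8.05 and 7.74. Both marks were at 11 of 17 T-box genes, 4 of 6 GATA genes, 14 of 20 proneural bHLH genes and 17 of 42 forkhead genes, with H3K27me3 only at 1, 1, 3 and 7. Gata4, of heart and endoderm, had enrichments of 8.12 for H2AK119ub1 and 6.8 for H3K27me3, and Eomes, of mesendoderm, 7.27 and 7.24. T, the primitive streak gene Brachyury, had H3K27me3 only. Among proneural genes, which start neuronal differentiation, Neurog2 had enrichments of 4.94 and 11.8 and Olig2 5.97 and 11.7. Of 20 mesoderm and primitive streak genes, 12 had both marks and 4 H3K27me3 only, and of 20 endoderm genes 10 and 2. Foxf1a, of lateral mesoderm, was placed in H2AK119ub1 only by the rule on peak centres. The 15245 bp H3K27me3 peak named above covered its start, and all 4 of its H2AK119ub1 promoter peaks were overlapped by H3K27me3.

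Signalling ligands varied by family. Of 19 Wnt ligands, 12 had both marks and 5 H3K27me3 only. Wnt1, of the midbrain, had enrichments of 3.63 and 5.96, and Wnt4, with H3K27me3 only, had 6.16. Of 22 genes named Fgf, not all of which encode secreted ligands, 7 had both and 8 H3K27me3 only. Of 32 BMP and TGF-beta family ligands 7 had both and 12 H3K27me3 only. Bmp4, with 1 H2AK119ub1 peak of 380 bp and 2202 bp of H3K27me3, was in the first group. Nodal, which holds back neural fate, was in the second, with 2 H3K27me3 peaks over 1379 bp at up to 7.13. Its inhibitors Lefty1 and Lefty2 also had H3K27me3 only, at 4.71 and 6.55. Of 20 antagonists of BMP, Nodal and Wnt, 3 had both marks and 8, among them Nog and Chrd, H3K27me3 only.

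Genes of mature neurons, the cell surface and the matrix more often had H3K27me3 only than both marks. Over all genes these shares were 10.9% and 4.73%. H3K27me3 only was found at 42 of 92 potassium channel genes, 37 of 96 neurotransmitter receptor genes, 23 of 58 axon guidance genes and 13 of 43 collagen genes. Both marks were at 17, 20, 10 and 4 of these genes, or 18.5%, 20.8%, 17.2% and 9.3%, also above the share of all genes. The names behind the receptor list are matched by pattern and include a few other genes, such as Htra1, a protease. Of 24 clustered protocadherins, which label single neurons, 14 had H3K27me3 only and 0 both. Of 18 genes of the Notch pathway, 9 had H3K27me3 only, including the ligand Dll1 and the target Hes5, and 3, Dll4, Hes2 and Hes3, had both. Of 18 retinoic acid genes, 4 had both, 4 H3K27me3 only and 1, Cyp26b1, H2AK119ub1 only.

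Neural progenitor markers were divided. Of 19, 5 had both marks (Pou3f3, Pax6, Pou3f1, Zic1 and Otx2), 5 H3K27me3 only (Vim, Nes, Pou3f2, Hes5 and Tubb3) and 9 neither, among them Sox2, Sox3, Msi1 and Cdh2. Nes, which encodes the filament nestin, had 1 H3K27me3 peak of 1252 bp at 6.06, and Pou3f2, a POU factor, 3 over 1953 bp at up to 4.49. In PCGF5-depleted NPCs both Nes and Pou3f2 had both marks, as did Cdh2, N-cadherin, while Nodal, Lefty1, Lefty2 and Pcgf5 had neither mark there. These are peak calls in single libraries. Sox1 was not analysed here. Of 19 pluripotency genes, 6 had both marks (Prdm14, Klf4, Tbx3, Fgf4, Klf2 and Esrrb), 4 H3K27me3 only and 9, with Pou5f1 and Nanog, neither.

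Among genes of the Polycomb complexes, both marks were near their share of all genes. Of 17 Pcgf and PRC1 genes, 1, or 5.88%, had both marks, namely Bmi1 at 5.81 and 10.5, and 5, or 29.4%, had H3K27me3 only, namely Phc2, Kdm2b, Auts2, Bcor and Pcgf5. Pcgf5 had 2 H3K27me3 peaks over 720 bp at up to 6.23. Of 16 Cbx and PRC2 genes, 3 carried a mark, among them Cbx8 with both and Phf19 with H3K27me3 only. Neither mark had a peak at any of 80 ribosomal protein genes, 36 complex I genes or 67 replication-dependent histone genes, and of 1087 olfactory receptor genes 1 had both and 3 H3K27me3 only. These lists are described by their counts and were not tested for enrichment.

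**Figure D5:**
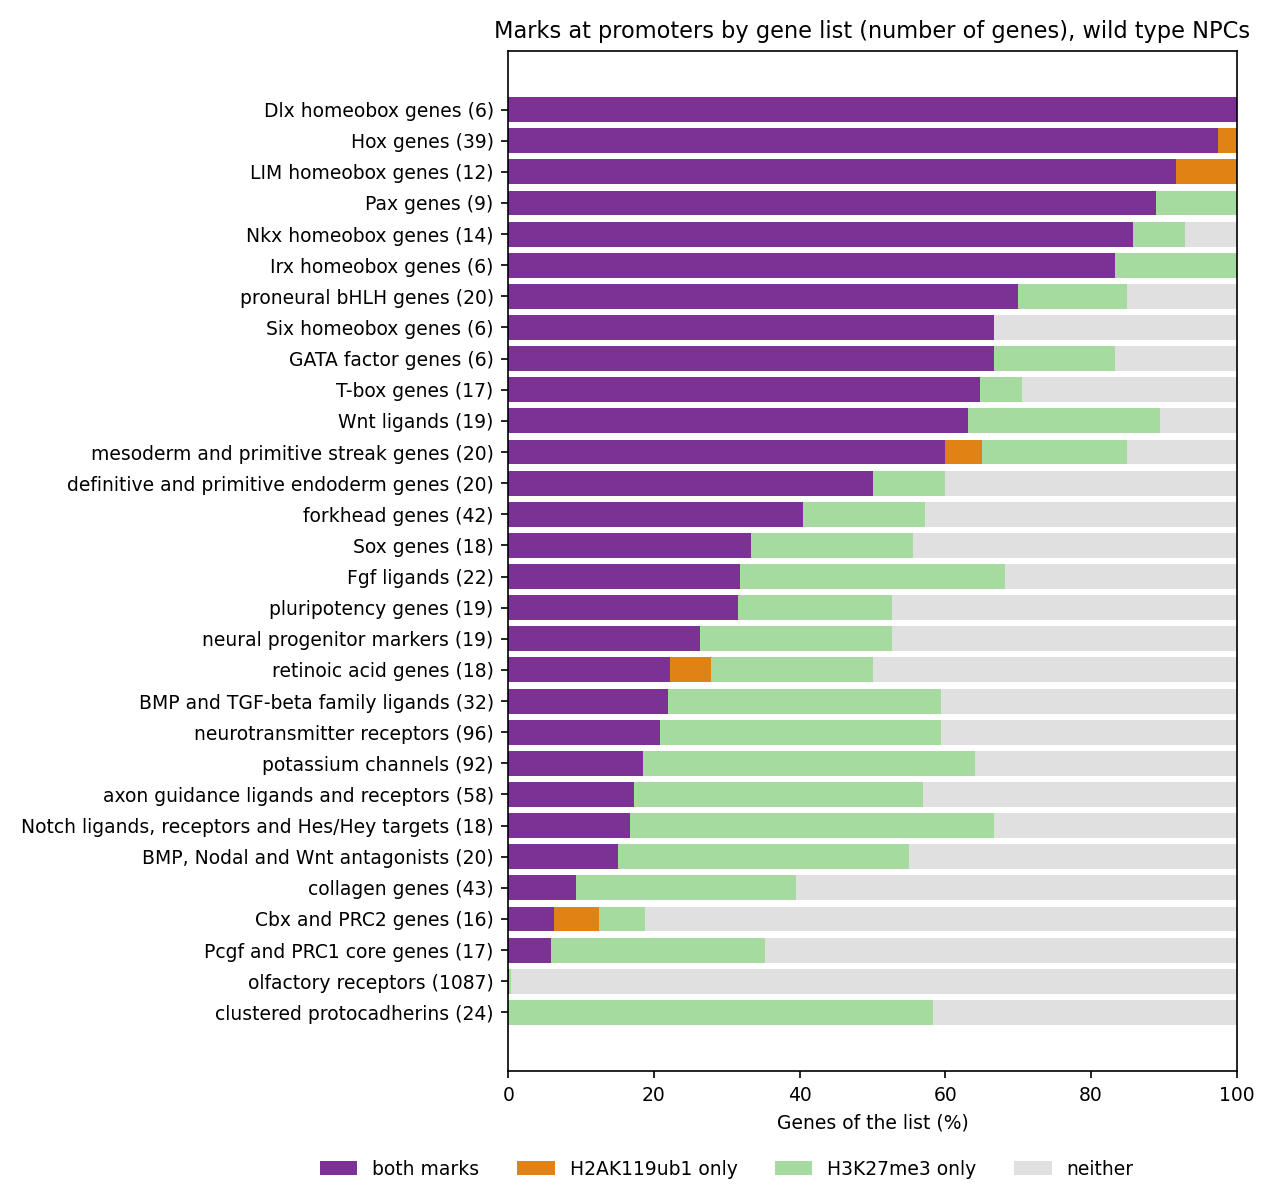
Percent of the genes of each list, with the number of genes in brackets, that had both marks, H2AK119ub1 only, H3K27me3 only or neither at a promoter in wild type NPCs. Lists run from the highest share of both marks, at 100% of the Dlx genes, to 0% of the clustered protocadherins; lists without any marked gene are left out.

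Over all widths, peaks with both marks were found again in the histone lists of other cells more often than peaks alone. In PCGF5-depleted NPCs, H2AK119ub1 peaks overlapped 30.3% (29 to 31.6) of the H2AK119ub1 peaks with H3K27me3 and 7.26% (5.85 to 8.96) of those alone. H3K27me3 peaks of those cells overlapped 81.4% (80.2 to 82.5) and 23.4% (21 to 26.1). Of H3K27me3 peaks with H2AK119ub1, 83% (81.6 to 84.3) were found again as H3K27me3, against 50.1% (49 to 51.2) alone. In the widest 25% of H3K27me3 peaks the shares were 96.7% and 86.4%, so the gap was smaller at equal width. In wild type ESCs the H3K27me3 shares were 43.7% (41.9 to 45.6) and 28.6% (27.6 to 29.5), and in the widest 25% 69.4% and 66.6%, with intervals that overlap. Among the narrowest 25% the order in wild type ESCs was the opposite, at 6.04% (3.85 to 9.34) and 13.4% (12.1 to 14.7), as it was for H3K27me3 of PCGF5-depleted ESCs, at 8.05% and 12.3%.

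Flag-PCGF5 peaks in NPCs met few of the peaks of any class. Of H2AK119ub1 peaks, they overlapped 4.25% (3.71 to 4.87) with H3K27me3 and 2.7% (1.88 to 3.85) alone. Of H3K27me3 peaks, they overlapped 8.35% (7.4 to 9.41) with H2AK119ub1 and 6.86% (6.34 to 7.42) alone, and in the widest 25% 13.7% (12.1 to 15.5) and 13% (11.3 to 14.9). At promoters the shares were 11.1% (9.55 to 13) and 8.56% (7.81 to 9.38), and among the narrowest 25% they were 1.34% (0.523 to 3.4) and 4.56% (3.81 to 5.44), the opposite order. Of genes with both marks, 22.7% (20.3 to 25.4) had promoter Flag-PCGF5, of genes with H3K27me3 only 22% (20.4 to 23.7) and of genes with H2AK119ub1 only 21.1% (12.5 to 33.3), against 12.1% (11.7 to 12.6) of genes with neither mark. Histone chromatin was digested with nuclease and Flag chromatin sonicated, so the widths of these peaks are not comparable.

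H2AK119ub1 lay within H3K27me3 more often in the NPC libraries than in the ESC libraries. Of H2AK119ub1 peaks, 81.3% overlapped H3K27me3 in wild type NPCs and 74.5% (73.1 to 75.8) in PCGF5-depleted NPCs, but 38.8% (37.8 to 39.8) in wild type ESCs and 27.6% (26.6 to 28.6) in PCGF5-depleted ESCs. H3K27me3 covered 9.67 and 8.18 Mb in the NPC lists and 4.31 and 3.84 Mb in the ESC lists, and the part of this in the shares was not tested. At genes the shares of H2AK119ub1 promoters with H3K27me3 were nearer to each other, at 94.9%, 92.6%, 79.8% and 73.3% in the same order. In the other direction 25.5%, 15.2%, 27.4% and 18.4% of H3K27me3 peaks had H2AK119ub1. The wider H3K27me3 of shared peaks was likewise clearest in NPCs, with log2 ratios of median width of 1.49 and 1.37 in the NPC libraries and 0.57 and 0.43 in the ESC libraries.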

How the data were processed

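H2AK119ub1 and H3K27me3 ChIP-seq peaks of wild type NPCs, 1 library per mark, were compared, with the other 8 peak lists as reference; 6 input libraries and the reads were not used. Groups came from the labels. Per the methods of the study, the authors digested chromatin with micrococcal nuclease, fixed it lightly, trimmed reads, aligned them to mm9 with Bowtie2, removed duplicates and called histone peaks with MACS2 at its default settings, giving 1 list per library (version 2.1.0 per the submitters' processing notes). The study scaled its histone signal tracks by an internal control before viewing them. Whether the Drosophila chromatin added as a spike-in scaled any value of the peak lists is not given in the sources used here.

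For each peak the deposited files give a score (10 times the -log10 p-value, rounded down), a fold enrichment (a ratio) in column 7, and the p-value and q-value on the -log10 scale. These come from the authors' caller and were compared within lists only. On the -log10 scale the weakest p-value was 4.02 for H2AK119ub1 and 4.05 for H3K27me3, and 4.41% and 0% of peaks had a q-value above 0.05. The H2AK119ub1 list was thus not cut at a q-value of 0.05, so the default settings named in the methods may not describe it. Depth was unknown.

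Coordinates are on mm9 (NCBIM37), counted from 1, and genes are 22232 protein-coding names of GENCODE M1. Peaks were located by their centre in the order promoter, exon, intron, intergenic; a gene had a mark when a peak was centred within 2500 bp of one of its starts. Overlap counts were checked against bedtools 2.31.1 with 0 differing, and the code was tested on simulated lists, with Python 3.11.15, numpy 2.4.6, pandas 2.3.3 and scipy 1.17.1. Intervals of differences in shares combine Wilson limits, and those of ratios of medians combine binomial limits of both medians. CpG ratios compare CG counts with those from base composition. The reference carried no lower-case marking of repeats, so a planned choice by it was not applied, and words of 25 bases were counted on both strands of the whole genome.

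Named peaks were the 3 highest in column 7 and the 3 widest of each class, named regions the 10 with the most covered bases, and named genes the 10 highest per class (for both marks, by the lower of the percentiles of column 7), genes the study examined and members of 33 lists. Printed sequences were from the promoter peak highest in column 7 outside chromosomes 18, X, Y and M; the next peak was taken where the window met an annotated untranslated region, as at Zic4 and 1810019J16Rik. The members and the lists were chosen with earlier results of these data known. The crowded stretches of H2AK119ub1 alone and the tandem repeats were noticed after the values were seen. Some genes that the rule would name are not reported here.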

Additional observations from a re-analysis of the deposited data

Results flagged for a closer look

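In PCGF5-depleted ESCs the median enrichment of H2AK119ub1 peaks with H3K27me3 was lower than that of peaks alone, at 3.9 against 4.05, a log2 ratio of -0.05. In wild type NPCs it was higher, with a log2 ratio of 0.07. These are single libraries whose ratios have opposite signs, and the difference between them was not tested.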

How the results depend on the processing

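Over 11 alternatives, 40 of 77 recomputed values moved little, 37 moved by more than their counting interval (or 1.5 times for gene counts) and 0 reversed. Requiring 50% of a peak to be overlapped gave shares with the other mark of 78.5% for H2AK119ub1 and 11.2% for H3K27me3, an H3K27me3 promoter difference of -23.7 points and H3K27me3 log2 ratios of 0.55 for width and 0.34 for enrichment. Counting the other mark within 1000 bp gave 87.6% and 35.4%, an H2AK119ub1 promoter difference of 34.5 points and H3K27me3 ratios of 1.03 and 0.32. The 50% of peaks with the higher scores gave 79.2% and 26.5%, 593 genes with both marks, promoter differences of 21.4 and -16.7 points, width ratios of 1.09 and 1.16 and enrichment ratios of 0.01 and 0.30 for H2AK119ub1 and H3K27me3. Equal numbers of top peaks gave 70% and 39.3%, and H3K27me3 ratios of 1.14 for width and 0.27 for enrichment. Merging peaks within 1000 bp gave 71% and 24.3%, promoter differences of 34.7 and -0.306 points and width ratios of 1.02 and 2.41. By covered base pairs the shares were 85.4% and 20.6%. A promoter window of 1000 bp gave 579 genes and differences of 16 and -15.7 points, and counting any base of a peak within the window gave -8.69 points for H3K27me3. Without peaks of repeated sequence, an alternative chosen after seeing the data, the H2AK119ub1 share was 86.4% and its promoter difference 21.5 points. Removing peaks with a q-value above 0.05 and keeping chromosomes 1 to 19 moved none of these values beyond that limit. The causes of these shifts were not tested, beyond what each setting sets by its construction. No paired analysis was possible because each group had 1 library. With depth unknown, a peak missing from 1 list may be a mark below the caller's reach, and with no replicates no spread between cultures could be given.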
